A study of Mus musculus with 18 samples.

Results

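The 9 chemokine receptor genes Cxcr3, Cxcr4, Cxcr5, Cxcr6, Ccr2, Ccr4, Ccr6, Ccr8 and Ccr9 were followed through 18 RNA-seq libraries of mouse T cells. They were found by gene symbol among the 52506 genes listed in all 3 deposited tables, and all 9 had a row in each. The cells were double negative T cells, which lack CD4 and CD8, obtained by converting CD4+ T cells of spleen and lymph node. All were wild type and stimulated with antibodies to CD3 and CD28, and each group held 3 libraries. The age and sex of the mice and the strain are not given in the labels. Set 1 held cells without ligand (WT) and cells given 400 µM ATPgs, a slowly hydrolysed ATP analogue, for 6 h (WTATPgs). Set 2 held cells without ligand (DNT) and cells given 400 µM adenosine for 6 h (ADO). Set 3 held cells given 250 nM of an inhibitor of the adenosine receptor A2aR, without adenosine (R) or with 400 µM adenosine for 6 h (RA), so the controls of set 3 carried the inhibitor too.

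Chemokine receptors are membrane proteins that couple to inhibitory G proteins and steer cells along gradients of small secreted proteins, the chemokines. In T cells the set of receptors on the surface determines which tissues a cell can enter: Cxcr3, Cxcr6 and Ccr2 guide cells to inflamed tissue and Cxcr6 also to the liver, Cxcr4 to bone marrow, Cxcr5 to B cell follicles, Ccr4 and Ccr8 to skin and other barrier tissue, and Ccr6 and Ccr9 to the gut. A2aR couples to a stimulatory G protein and raises cyclic AMP, whereas ATP acts on the separate P2 receptors. The comparisons asked how each ligand altered these transcripts within its own set, whether the 2 ligands differed, and whether the adenosine effect differed in the presence of the inhibitor.

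Total counts ran from 20156082 to 24331577 over the 18 libraries. Whether replicates were separate cultures or animals is not stated, and p-values therefore reflect library-to-library spread that may be technical. Replicates varied least in set 2 (common biological coefficient of variation 2.74%), more in set 1 (10.6%) and most in set 3 (19.6%). WTATPgs replicate 3 stood apart from the other WTATPgs libraries, and the R libraries differed from each other. Ribosomal protein genes took 9.41% to 15.1% of counts in set 3 against 4.29% to 4.85% in sets 1 and 2. The lowest share of set 3 was in R replicate 2 and the highest in R replicate 3. Mitochondrially encoded genes took 5.47% of counts in R replicate 3 and 3.14% to 3.95% in the other libraries of set 3. The 13 T cell markers (Cd3e, Trac and others) summed to between 2925 and 6531 CPM (counts scaled to library size) and none was at 0 throughout a group. Cd4, Cd8a and Cd8b1 together summed to between 5.55 and 23.4 CPM, with differences between groups. The sum was 19.0 to 21.55 CPM in WT and 5.55 to 10.1 CPM in WTATPgs. It was 22.2 to 23.4 CPM in DNT and 15.7 to 18.3 CPM in ADO, and 12.6 to 14.7 CPM in R and 11.9 to 12.7 CPM in RA. The 10 B cell markers summed to 8.44 to 8.82 CPM in WT and to 19.4, 21.0 and 4.46 CPM in the 3 WTATPgs libraries. The 13 myeloid markers summed to 139 to 145 CPM in WT and to 260, 261 and 99.5 CPM in WTATPgs. Most of the WT sum was Ly6c2, which activated T cells also express, and the 12 others summed to 33.4 to 36.8 CPM in WT and to 157.5, 161 and 37.7 CPM in WTATPgs.

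Transcript levels of the receptors spanned 3 ranges. Per kilobase of exon, Cxcr6 had the highest level of the 9 in all 6 groups and held 63.3% to 75.4% of their summed level, and Ccr2 was the second in all 6. Cxcr6 had 130 CPM per kilobase in WT, 42.4 in DNT and 78.9 in R, and Ccr2 had 21.2, 9.47 and 30.0 CPM per kilobase in those groups. Cxcr4, Cxcr3 and Ccr4 followed at 8.52, 3.61 and 7.20 CPM per kilobase in WT. In contrast, Ccr8 had 1.24, and Cxcr5, Ccr6 and Ccr9 had 0.306, 0.385 and 0.146 CPM per kilobase in WT. The order of Cxcr3, Cxcr4 and Ccr4 depended on the group: in DNT Cxcr3 was the third and Ccr4 the fifth, while in R Cxcr3 was the sixth. The sum over the 9 genes was 173 CPM per kilobase in WT, 269 in WTATPgs, 62.8 in DNT, 100.1 in ADO, 122.5 in R and 135 in RA. Levels set across the 3 tables rest on TMM scaling, whose factors were 1.12 to 1.19 in sets 1 and 2 and 0.597 to 0.846 in set 3, and no test was made between sets on levels. All further values of a gene are TMM-scaled CPM, not per kilobase. These are bulk libraries, so a change in the number of cells that express a receptor cannot be told apart from a change in the transcript per cell.

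**Figure D1:**
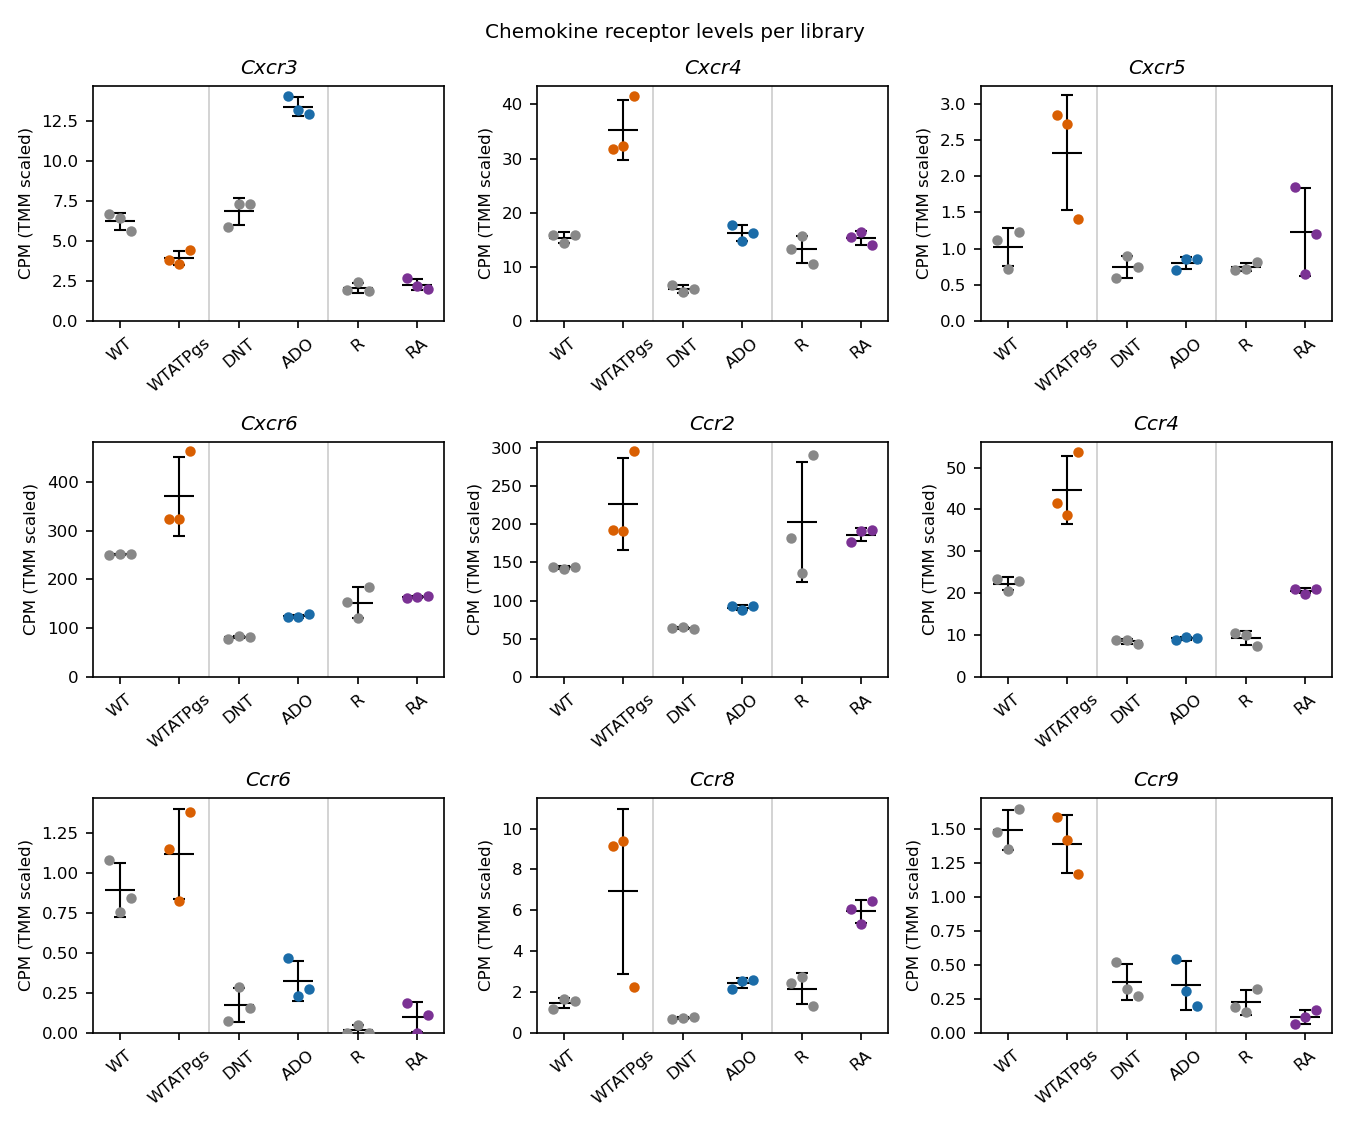
Level of each receptor transcript (CPM, TMM scaled, linear axis from 0, a different range in each panel) in the 6 groups, with a point per library and the mean ± SD of 3 libraries. Cxcr3 was lower in WTATPgs than in WT and higher in ADO than in DNT, Cxcr4 was higher with either ligand without inhibitor, and Ccr4 was higher in WTATPgs and RA than in their controls.

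Genes were called at an adjusted p under 0.05 in edgeR's quasi-likelihood test with Benjamini-Hochberg adjustment over all genes tested. With ATPgs, 6 of the 9 receptors rose and 1 fell, where 37.1% of all tested genes were called, 17.7% higher and 19.4% lower. With adenosine, 5 of the 7 receptors tested rose and the others, Cxcr5 and Ccr4, were not called, where 50.2% of genes were called, 25.5% higher and 24.6% lower. With adenosine in the presence of the inhibitor, 1 of 7 rose, where 1.14% of genes were called, 0.287% higher and 0.855% lower. The median log2 fold change of the receptors tested was 0.67 with ATPgs, 0.60 with adenosine and 0.17 with adenosine and inhibitor, and that of all genes tested lay between -0.04 and 0.00. Ccr6 and Ccr9 passed the filter on low counts only in set 1 and in the comparison between ligands.

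Cxcr3 and Ccr4 distinguished the ligands, and Cxcr4 and Ccr4 distinguished adenosine without and with inhibitor. Each difference was tested as a contrast of the 4 group means in 12 libraries. The spread was pooled over both sets, with a common biological coefficient of variation of 14.2% with inhibitor and 7.44% between ligands. For the inhibitor this joined 2.74% in set 2 with 19.6% in set 3, so its p-values may understate the spread of set 3. For Ccr4 the SE of that difference (0.178) was below that of the set 3 effect alone (0.198). Between ATPgs and adenosine, 1 of 9 receptors had a higher and 1 a lower effect, where 17.3% of genes were called, 8.13% higher and 9.12% lower. Between adenosine with and without inhibitor, 1 of 7 was higher and 1 lower, where 4.05% of genes were called, 0.909% higher and 3.14% lower. These differences also carry every other difference between the sets, which cannot be told apart from that between the treatments.

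**Figure D2:**
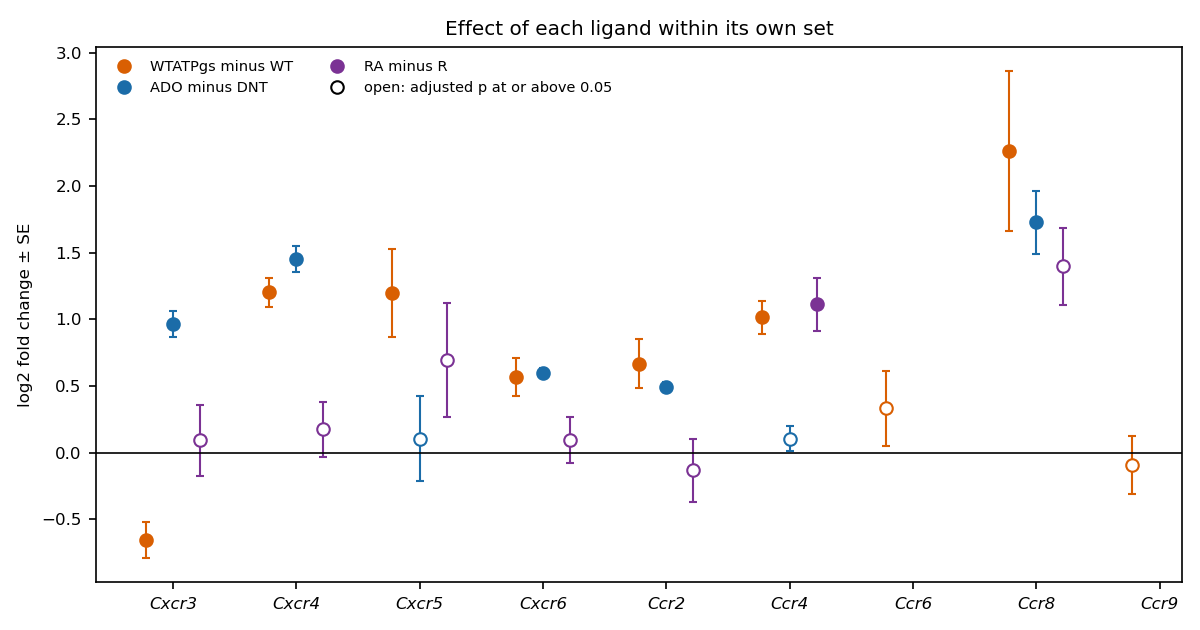
Log2 fold change (± SE) of each receptor within its own set, for ATPgs (WTATPgs minus WT), adenosine (ADO minus DNT) and adenosine with inhibitor (RA minus R); filled symbols mark an adjusted p under 0.05, and receptors below the count filter have no symbol. Cxcr3 lies below 0 with ATPgs and above 0 with adenosine, and Ccr4 lies near 1 with ATPgs and with adenosine plus inhibitor but at 0.11 with adenosine alone.

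Cxcr3, the receptor for the interferon-induced chemokines Cxcl9 and Cxcl10 that marks T helper 1 and cytotoxic cells, moved in opposite directions with the 2 ligands. The gene (ENSMUSG00000050232) lies at chrX:101731535-101734269 on the minus strand of GRCm38. It had 6.68, 6.41 and 5.64 CPM in WT and 3.81, 3.54 and 4.42 CPM in WTATPgs. It had 5.90, 7.32 and 7.35 CPM in DNT and 14.1, 13.2 and 12.97 CPM in ADO. In both sets every treated library lay outside the control range, below it with ATPgs and above it with adenosine. On the log2 scale the change was -0.66 ± 0.13 (SE) with ATPgs (adjusted p = 0.00545) and 0.96 ± 0.10 with adenosine (adjusted p = 3.75e-12). The effects differed by -1.61 ± 0.17 (adjusted p = 6.51e-06), and this call held under every alternative tried, with adjusted p up to 0.000255. With the inhibitor the gene was low in both groups, at 1.92, 2.43 and 1.86 CPM in R and 2.66, 2.16 and 2.002 CPM in RA, from 23 to 47 counts per library. The log2 fold change there was 0.09 ± 0.27 (adjusted p = 0.946), and its difference from adenosine alone was -0.89 ± 0.23 (adjusted p = 0.0541). That difference passed the threshold with DESeq2 (0.0202), with all 18 libraries in one fit (0.0320), with a filter of 1 CPM in 3 libraries (0.0423) and without R replicate 3 (0.0146).

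Because the 2 ligands moved Cxcr3 in opposite directions, the 250 bases before its RefSeq start site are shown. They lie at chrX:101734148-101734397, minus strand, on GRCm38.p6, and hold no searched motif. This start lies inside the gene span given above, so part of the window overlaps the gene and the bases before its outer end were only partly searched.
Cxcr3: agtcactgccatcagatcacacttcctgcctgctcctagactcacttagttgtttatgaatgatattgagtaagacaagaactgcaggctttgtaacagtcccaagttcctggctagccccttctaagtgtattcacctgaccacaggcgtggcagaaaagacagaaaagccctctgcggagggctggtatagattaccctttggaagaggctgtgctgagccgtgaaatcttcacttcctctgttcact

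Cxcr4, the receptor for Cxcl12 that retains cells in bone marrow, rose with both ligands and showed a smaller effect in the presence of the inhibitor. The gene (ENSMUSG00000045382) lies at chr1:128588199-128592293 on the minus strand. It had 15.95, 14.3 and 15.95 CPM in WT and 31.8, 32.3 and 41.6 CPM in WTATPgs. It had 6.57, 5.24 and 5.82 CPM in DNT and 17.7, 14.7 and 16.3 CPM in ADO. No control library reached the lowest treated library of its set. The rise was 1.20 ± 0.11 on the log2 scale with ATPgs (2.30-fold, adjusted p = 9.18e-05) and 1.45 ± 0.10 with adenosine (2.74-fold, adjusted p = 4.04e-18). Both calls held under every alternative tried. The difference between the ligands was -0.24 ± 0.16 (adjusted p = 0.340), and without WTATPgs replicate 3 it was -0.39 with adjusted p = 0.00823.

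With the inhibitor Cxcr4 had 13.3, 15.7 and 10.6 CPM in R and 15.5, 16.5 and 13.9 CPM in RA. These ranges overlapped, and the R mean of 13.2 CPM lay between that of DNT (5.88 CPM) and those of WT (15.4 CPM) and ADO (16.2 CPM), with no test between sets. The log2 fold change was 0.17 ± 0.20 (adjusted p = 0.827). It was lower than that without inhibitor by a difference of -1.29 ± 0.21 (adjusted p = 0.00415). The call was lost with scaling by library size only (adjusted p = 0.0587). The 250 bases before the Cxcr4 start site (chr1:128592300-128592549, minus strand, RefSeq on GRCm38.p6) are given because this gene had the clearest difference with the inhibitor, and they too hold no searched motif.
Cxcr4: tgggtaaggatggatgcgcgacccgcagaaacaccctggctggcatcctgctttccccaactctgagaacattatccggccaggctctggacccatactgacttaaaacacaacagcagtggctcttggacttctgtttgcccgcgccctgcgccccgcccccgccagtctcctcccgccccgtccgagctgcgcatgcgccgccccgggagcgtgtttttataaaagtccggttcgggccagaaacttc

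**Figure D3:**
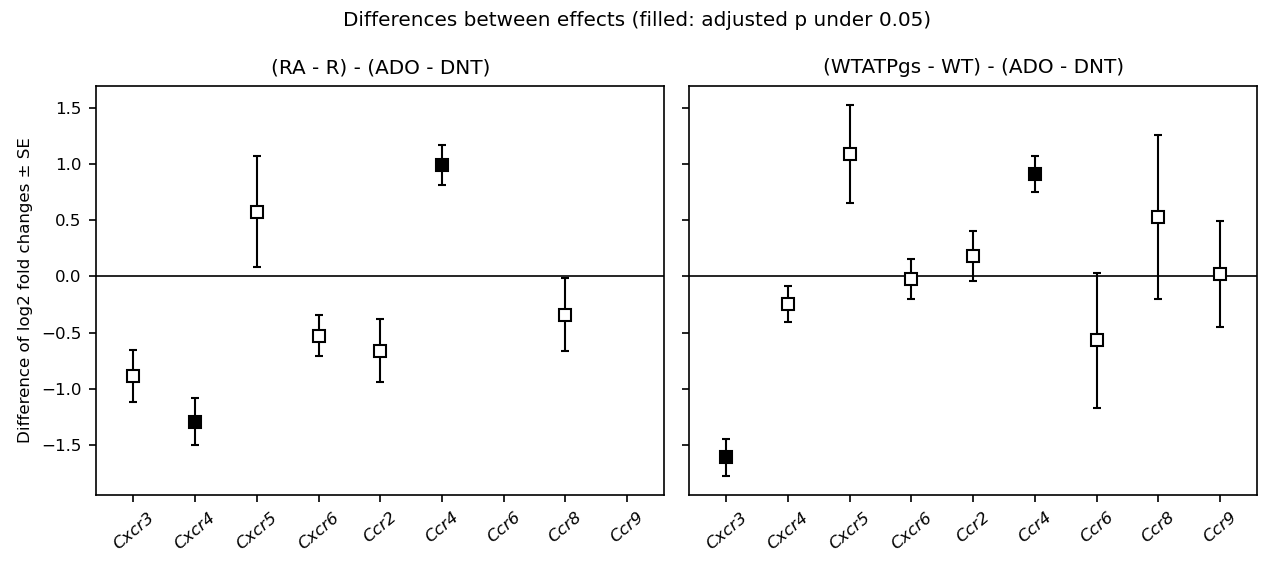
Difference between log2 fold changes (± SE), for adenosine with inhibitor minus adenosine alone (left) and ATPgs minus adenosine (right); filled squares mark an adjusted p under 0.05. Cxcr4 (-1.29) and Ccr4 (0.996) are filled on the left, Cxcr3 (-1.61) and Ccr4 (0.92) on the right.

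Ccr4, the receptor for Ccl17 and Ccl22 found on T helper 2, regulatory and skin-homing T cells, rose with ATPgs and with adenosine plus inhibitor, and did not pass the test with adenosine alone. The gene (ENSMUSG00000047898) lies at chr9:114490316-114504916 on the minus strand. It had 23.4, 20.4 and 23.0 CPM in WT and 41.5, 38.7 and 53.8 CPM in WTATPgs, with no overlap. In contrast, it had 8.92, 8.82 and 7.86 CPM in DNT and 8.90, 9.50 and 9.28 CPM in ADO, where the ranges overlapped. It had 10.4, 10.1 and 7.36 CPM in R and 21.0, 19.8 and 21.0 CPM in RA, again apart.

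Ccr4 had a log2 fold change of 1.01 ± 0.12 with ATPgs (adjusted p = 0.000712), 0.11 ± 0.10 with adenosine (adjusted p = 0.387) and 1.11 ± 0.20 with adenosine and inhibitor (adjusted p = 0.0300). The ATPgs effect was larger than the adenosine effect by 0.92 ± 0.16 (adjusted p = 0.00129), and this held under every alternative tried. The adenosine effect was larger with inhibitor than without by 0.996 ± 0.178 (adjusted p = 0.00779). That call was lost with scaling by library size only (0.0739) and also when replicate number was added to the fit. The call in set 3 alone was less stable: it was lost with library size only (0.112), without R replicate 1 (0.109), and without RA replicate 1 (0.186), 2 (0.155) or 3 (0.207). The log2 fold change in those fits remained between 1.08 and 1.22.

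The 250 bases before a RefSeq start of Ccr4 (chr9:114496545-114496794, minus strand) are shown because this was the only one of the 9 windows with the letters TGANTCA of an AP-1 site, marked in capitals and starting 143 bases before the start. The whole window lies inside the gene span given above, not before its outer end.
Ccr4: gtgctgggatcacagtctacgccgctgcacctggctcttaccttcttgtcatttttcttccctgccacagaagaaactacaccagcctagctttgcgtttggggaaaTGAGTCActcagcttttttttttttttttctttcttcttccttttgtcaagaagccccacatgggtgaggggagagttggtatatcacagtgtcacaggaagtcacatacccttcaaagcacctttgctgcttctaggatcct

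Ccr8, the receptor for Ccl1 found on skin T cells and tissue regulatory T cells, had the largest log2 fold change of the receptors tested in each treatment comparison. The gene (ENSMUSG00000042262) lies at chr9:120092114-120094906 on the plus strand. It had 1.16, 1.63 and 1.57 CPM in WT and 9.14, 9.40 and 2.26 CPM in WTATPgs. It had 0.672, 0.732 and 0.782 CPM in DNT and 2.15, 2.55 and 2.60 CPM in ADO. It had 2.43, 2.74 and 1.29 CPM in R and 6.06, 5.31 and 6.46 CPM in RA. All treated libraries lay above their controls in each set, but WTATPgs replicate 3 was far below the other WTATPgs libraries. The control libraries held few counts of Ccr8, 29 to 41 in WT, 18 to 20 in DNT and 16 to 53 in R.

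Ccr8 had a log2 fold change of 2.26 ± 0.60 with ATPgs (adjusted p = 0.0325), 1.73 ± 0.24 with adenosine (adjusted p = 2.06e-08) and 1.40 ± 0.29 with adenosine and inhibitor (adjusted p = 0.0598). The last passed the threshold with DESeq2 (0.000601), with no filter on low counts (9.67e-05), with all 18 libraries (0.0246), without R replicate 2 (0.0376) and without R replicate 3 (0.00523). The ATPgs call was lost without any 1 of the WT libraries (0.106, 0.0913 and 0.0960 without replicates 1, 2 and 3) and without WTATPgs replicate 1 (0.0787) or 2 (0.0786). It was also lost with limma-voom (0.0934) and with no filter on low counts (0.111). Without WTATPgs replicate 3 it was 2.68 ± 0.15 (adjusted p = 1.50e-21). Neither difference between comparisons passed the test for Ccr8, with values of 0.53 ± 0.73 between ligands (adjusted p = 0.686) and -0.34 ± 0.33 for the inhibitor (adjusted p = 0.677). Without WTATPgs replicate 3 the difference between ligands was 0.95 (adjusted p = 0.0105).

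In set 1 the libraries with high Ccr8 were also those with high myeloid and B cell transcripts. Lyz2, which encodes lysozyme, had 3.96, 4.42 and 4.18 CPM in WT and 18.5, 18.4 and 4.35 CPM in WTATPgs. S100a9, a neutrophil and monocyte gene, had 14.1, 12.03 and 12.2 CPM in WT and 59.0, 59.0 and 8.53 CPM in WTATPgs. Their part in the Ccr8 result was not tested. In set 2, where Ccr8 also rose, 6 of the 13 myeloid markers were tested, of which 3 rose and 2 fell. Those that rose were Lyz2 (0.283 CPM in DNT, 0.880 CPM in ADO, log2 change 1.60 ± 0.40, adjusted p = 0.000649), Cd68 (0.70 ± 0.10, adjusted p = 8.85e-08) and Cd14 (2.60 ± 0.31, adjusted p = 5.09e-10). Those that fell were Fcgr1 (-1.19 ± 0.44, adjusted p = 0.0221) and Ly6c2 (-0.13 ± 0.03, adjusted p = 4.59e-05). Mpo was not called (-0.20 ± 0.29, adjusted p = 0.588), and S100a9 did not exceed 0.0782 CPM. The part of these markers in the adenosine result was not tested. All 13 myeloid markers summed to 236 to 250 CPM in DNT and 219 to 240 CPM in ADO. In set 3 they summed to 797 to 1429 CPM in R and 722 to 796 CPM in RA. The 12 without Ly6c2 summed to 9.60 to 11.3 CPM in DNT and 14.9 to 18.3 CPM in ADO. Most of that was Cd68, at 7.28 and 11.9 CPM, while Cd14 had 0.341 and 2.09 CPM (means of 3). The same 12 summed to 14.4 to 19.5 CPM in R and 19.6 to 22.8 CPM in RA.

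**Figure D4:**
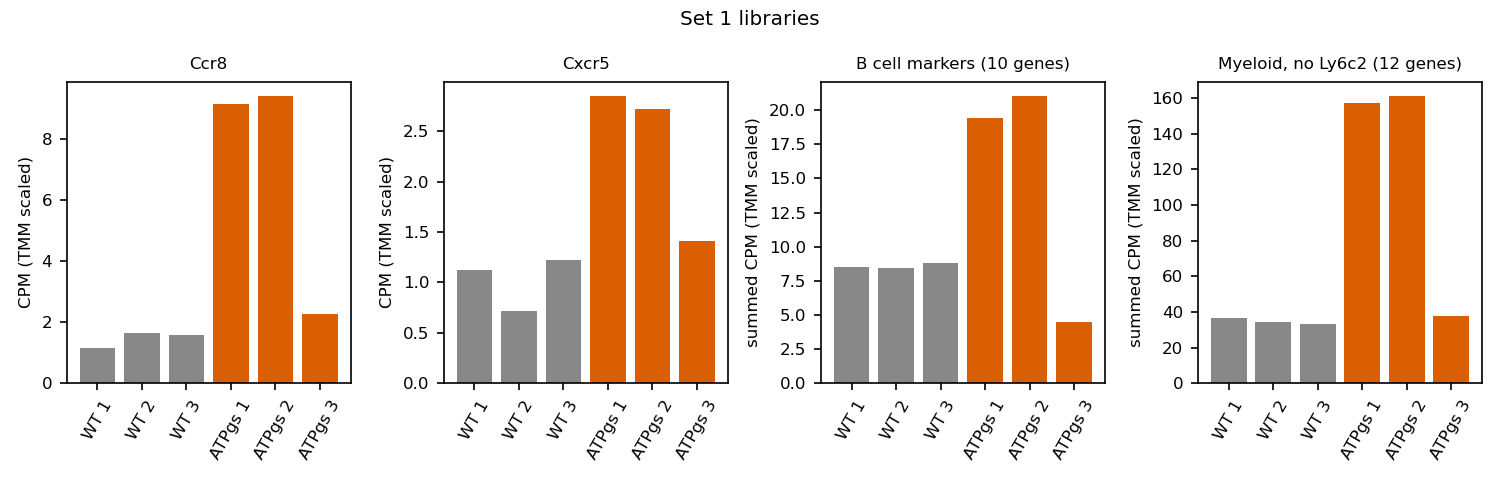
Ccr8, Cxcr5, the sum of 10 B cell markers and the sum of 12 myeloid markers without Ly6c2 in the 6 libraries of set 1, as bars from 0 in TMM-scaled CPM, 1 bar per library. The first and second WTATPgs libraries are high in all 4 panels, while WTATPgs replicate 3 is close to WT or below it, at 2.26 CPM for Ccr8 and 4.46 CPM for the B cell sum.

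Cxcr6, the receptor for the membrane-bound chemokine Cxcl16 that holds T cells in the liver, and Ccr2, the receptor for Ccl2 and related inflammatory chemokines, were the most abundant receptors and rose with both ligands. Cxcr6 (ENSMUSG00000048521) lies at chr9:123806475-123811760 and Ccr2 (ENSMUSG00000049103) at chr9:124101950-124113557, both on the plus strand. Cxcr6 had 251, 252 and 252 CPM in WT and 325, 323 and 463 CPM in WTATPgs. It had 78.7, 84.1 and 82.6 CPM in DNT and 122, 123 and 128 CPM in ADO. Treated and control libraries did not overlap in either set, and WTATPgs replicate 3, which had the lowest B cell and myeloid sums of WTATPgs, was the highest. Ccr2 had 144, 141 and 144 CPM in WT and 192, 191 and 296 CPM in WTATPgs. It had 63.8, 65.0 and 63.2 CPM in DNT and 92.2, 86.9 and 92.6 CPM in ADO, with the same separation.

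With adenosine the log2 fold change was 0.60 ± 0.03 for Cxcr6 (adjusted p = 1.67e-21) and 0.49 ± 0.04 for Ccr2 (adjusted p = 1.30e-16). In the fit of all 18 libraries the Ccr2 call was lost (adjusted p = 0.106). With ATPgs it was 0.57 ± 0.14 for Cxcr6 (adjusted p = 0.0289) and 0.67 ± 0.18 for Ccr2 (adjusted p = 0.0405). Both ATPgs calls were lost without any 1 of the WT libraries (adjusted p 0.0816 to 0.0842 for Cxcr6 and 0.106 to 0.111 for Ccr2) and with no filter on low counts (0.132 and 0.144), and that of Ccr2 also without WTATPgs replicate 1 (0.0511). Without WTATPgs replicate 3 the ATPgs effect was 0.38 for Cxcr6 and 0.43 for Ccr2, with adjusted p of 4.26e-20 and 3.58e-19. The difference between ligands was -0.02 ± 0.18 for Cxcr6 (adjusted p = 0.953) and 0.18 ± 0.22 for Ccr2 (adjusted p = 0.642). For Cxcr6 it was -0.22 without WTATPgs replicate 3 (adjusted p = 4.15e-06).

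In set 3 both receptors varied most among the R libraries. Cxcr6 had 153, 120 and 184 CPM in R and 163, 165 and 167 CPM in RA. Ccr2 had 182, 136 and 290 CPM in R and 176, 190 and 192 CPM in RA. The ranges overlapped for both, and the log2 fold changes were 0.09 ± 0.17 (adjusted p = 0.903) and -0.13 ± 0.24 (adjusted p = 0.900). The differences from adenosine alone were -0.53 ± 0.18 for Cxcr6 (adjusted p = 0.133) and -0.66 ± 0.28 for Ccr2 (adjusted p = 0.245). Without R replicate 2 they were -0.60 (0.00387) and -0.79 (0.0121), and without R replicate 3 they were -0.34 (0.0482) and -0.28 (0.147), so their size and calls rested on single R libraries.

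Cxcr6, Ccr2 and Ccr9 lie in the chemokine receptor cluster of chromosome 9. Of the neighbouring receptors described here, Xcr1 (0.52 ± 0.12 and 0.58 ± 0.14) and Ccr1 (0.75 ± 0.21 and 0.64 ± 0.15) rose with ATPgs and with adenosine, all with adjusted p under 0.05. Ccr3 and Ccr1l1 did not pass the test in either. Fyco1, a gene for a transport adaptor that runs across Cxcr6 on the opposite strand, also rose, by 0.45 ± 0.07 with ATPgs (adjusted p = 0.000993) and 0.63 ± 0.05 with adenosine (adjusted p = 2.08e-14), and shares no exon base with Cxcr6.

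The Cxcr6 window (chr9:123806227-123806476, plus strand, RefSeq on GRCm38.p6) is shown because it holds TGACG, the core of the cyclic AMP response element, in capitals and starting 24 bases before the start site.
Cxcr6: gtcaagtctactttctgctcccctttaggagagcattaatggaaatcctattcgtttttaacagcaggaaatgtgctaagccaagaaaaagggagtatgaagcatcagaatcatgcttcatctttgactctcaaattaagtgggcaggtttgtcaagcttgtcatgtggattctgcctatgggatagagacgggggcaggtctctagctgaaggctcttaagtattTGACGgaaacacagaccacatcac
The search covered both strands of 9 windows of 250 bases from the 8 receptors with a RefSeq promoter entry. The windows of Ccr4, Ccr9 and the second start of Ccr6 lie wholly inside the gene spans given here. Those of Cxcr3, Cxcr6, Ccr2 and Ccr8 overlap their gene spans in part, so some of the sequence searched is within genes. TGACG was found in 2 of the 8 receptors, Cxcr6 and the second start of Ccr6, and in 17.8% of all 32851 windows of that length. The full element TGACGTCA, which contains TGACG, was found in none of the 8 and in 1.55% of windows. TGANTCA was found in 1, Ccr4, and in 6.75% of windows. These matches describe letters and not binding.

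Cxcr5, Ccr6 and Ccr9, the receptors for follicles and gut, were near the limit of detection. Cxcr5 (ENSMUSG00000047880, chr9:44511787-44561877, minus strand) binds Cxcl13 and is most abundant in B cells and follicular helper T cells. It had 1.12, 0.717 and 1.23 CPM in WT and 2.85, 2.72 and 1.42 CPM in WTATPgs, from 18 to 77 counts per library. The increase of 1.20 ± 0.33 was called (adjusted p = 0.0212), and was lost without WT replicate 1 (0.0649), WT replicate 2 (0.0856), WTATPgs replicate 1 (0.0671) or WTATPgs replicate 2 (0.0630), and with limma-voom (0.0529). The summed B cell markers were also high in the WTATPgs libraries in which Cxcr5 was high (19.4 and 21.0 CPM, against 4.46 CPM in replicate 3), and their part in the result was not tested. With adenosine Cxcr5 had 0.597, 0.894 and 0.743 CPM in DNT and 0.702, 0.849 and 0.855 CPM in ADO, with a log2 fold change of 0.11 ± 0.32 (adjusted p = 0.810). With the inhibitor it had 0.705, 0.722 and 0.808 CPM in R and 1.86, 0.642 and 1.20 CPM in RA (0.69 ± 0.43, adjusted p = 0.593). The difference between ligands was 1.09 ± 0.44 (adjusted p = 0.101), and without WTATPgs replicate 3 it was 1.35 (adjusted p = 0.00568). The exons of Cxcr5 share 110 of 3332 bases with Bcl9l on the other strand.

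Ccr6 (ENSMUSG00000040899, chr17:8236043-8257141, plus strand), the Ccl20 receptor of T helper 17 cells and B cells, had 0.893 CPM in WT (SD 0.167, n = 3) and 1.12 CPM in WTATPgs (SD 0.281, n = 3). The log2 fold change was 0.33 ± 0.28 (adjusted p = 0.395). It had 0 counts in R replicates 1 and 3 and in RA replicate 2, which allows up to 0.192, 0.242 and 0.175 CPM there, counting error only. Ccr9 (ENSMUSG00000029530, chr9:123678439-123784330, plus strand), the receptor for Ccl25 that guides cells to the small intestine, had 1.49 CPM in WT (SD 0.148, n = 3) and 1.39 CPM in WTATPgs (SD 0.213, n = 3), with a log2 fold change of -0.09 ± 0.22 (adjusted p = 0.779). It had 5 to 14 counts per library in set 2 and 1 to 4 in set 3. Its exons share 1932 of 10260 bases with AC165425.1 on the other strand and 269 with Gm17200 on the same strand, so part of its count is uncertain.

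Of the chemokines that bind these receptors, Ccl1, the Ccr8 ligand that activated T cells secrete, fell in all 3 treatment comparisons. It fell from 668 CPM in WT (SD 14.1, n = 3) to 83.0 CPM in WTATPgs (SD 18.3, n = 3), a log2 fold change of -2.99 ± 0.19 (adjusted p = 0.000269). It fell from 432 CPM in DNT (SD 8.48, n = 3) to 66.7 CPM in ADO (SD 2.49, n = 3), a change of -2.70 ± 0.03 (adjusted p = 1.23e-52). With the inhibitor it fell from 1287 CPM in R (SD 237, n = 3) to 470 CPM in RA (SD 11.7, n = 3), a change of -1.47 ± 0.18 (adjusted p = 0.00406). The fall was smaller with inhibitor by 1.21 ± 0.18 (adjusted p = 0.00248). Ccr8 transcripts were thus higher and Ccl1 transcripts lower in every treated library than in the controls of its set.

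Cxcl10, a Cxcr3 ligand, rose by 0.29 ± 0.05 with ATPgs (adjusted p = 0.00209) and 0.39 ± 0.04 with adenosine (adjusted p = 3.76e-11). With adenosine and inhibitor it fell from 13.8 CPM in R to 4.10 CPM in RA, a log2 change of -1.78 ± 0.24 (adjusted p = 0.00660), and the 2 adenosine effects differed by -2.19 ± 0.21 (adjusted p = 8.45e-05). Cxcl16, the Cxcr6 ligand, fell with adenosine and inhibitor by a log2 change of -1.55 ± 0.28 (adjusted p = 0.0313). Ccl20, the Ccr6 ligand, changed by -1.97 ± 0.55 with ATPgs (adjusted p = 0.0445) and by -2.81 ± 0.50 with adenosine (adjusted p = 4.66e-06), where its level was 0.838 CPM in DNT and 0.117 CPM in ADO. Ccl25, the Ccr9 ligand, rose by 0.43 ± 0.10 with adenosine (adjusted p = 0.000409). Of the 15 listed ligands, 8 were tested with ATPgs (1 rose, 2 fell), 8 with adenosine (2 rose, 2 fell) and 7 with adenosine and inhibitor (3 fell). Of all genes tested, 37.1%, 50.2% and 1.14% were called, so with ATPgs and with adenosine the share of ligands called was near that of all genes.

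Among 14 other chemokine receptors, 10 were tested with ATPgs (4 rose, 1 fell), 6 with adenosine (5 rose) and 6 with adenosine and inhibitor (1 rose), where 37.1%, 50.2% and 1.14% of all genes were called. Ccr7, which leads T cells into lymph nodes, rose in all 3 comparisons. It had 8.44 CPM in WT (SD 0.829, n = 3) and 25.1 CPM in WTATPgs (SD 12.9, n = 3), a log2 change of 1.58 ± 0.39 (adjusted p = 0.0289). It had 19.5 CPM in DNT and 47.5 CPM in ADO (1.28 ± 0.05, adjusted p = 6.56e-26), and 30.1 CPM in R and 56.4 CPM in RA (0.88 ± 0.17, adjusted p = 0.0386). Ccrl2, a receptor that binds chemerin and does not signal, rose by 1.41 ± 0.28 with ATPgs (adjusted p = 0.00926) and by 0.46 ± 0.09 with adenosine (adjusted p = 6.05e-05). With the inhibitor Ccrl2 had -0.95 ± 0.19 (adjusted p = 0.0539), and the difference from adenosine alone was -1.42 ± 0.17 (adjusted p = 0.000516). Over the receptors tested, the median log2 fold change of this list was 0.35, 0.52 and 0.15 in the 3 comparisons.

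Of 43 genes that relay or damp chemokine receptor signals, 17 rose and 5 fell with ATPgs, 21 rose and 15 fell with adenosine, and 1 fell with adenosine and inhibitor. Of all genes, 17.7% rose and 19.4% fell with ATPgs, 25.5% and 24.6% with adenosine, and 0.287% and 0.855% with adenosine and inhibitor. Rgs2, a regulator of G protein signalling, rose from 45.8 to 167 CPM with ATPgs (1.88 ± 0.07, adjusted p = 1.43e-06) and from 27.4 to 84.7 CPM with adenosine (1.62 ± 0.04, adjusted p = 3.46e-34). Its adenosine effect was smaller with inhibitor by a difference of -1.82 ± 0.27 (adjusted p = 0.00248). Rgs16, of the same family, fell by 1.004 ± 0.044 with ATPgs and by 0.33 ± 0.02 with adenosine on the log2 scale. Arrb1, which encodes the receptor-uncoupling protein beta-arrestin 1, rose by 0.78 ± 0.15 and 1.02 ± 0.06. Rasgrp2, an activator of Rap1 and so of integrins, rose by 1.16 ± 0.15 with ATPgs and by 0.41 ± 0.15 with adenosine. Rac1 rose by 0.28 ± 0.04 with ATPgs and by 0.58 ± 0.15 with adenosine. Its ADO libraries varied widely, with a mean of 225.5 CPM (SD 39.0, n = 3) against 150 CPM in DNT (SD 3.27, n = 3). Rgs10 rose by 0.48 ± 0.16 with adenosine. Pik3r6, a subunit of the kinase PI3K gamma, rose by 0.34 ± 0.10 with ATPgs, and fell by 0.34 ± 0.09 with adenosine and by 1.20 ± 0.21 with adenosine and inhibitor. All changes named here had adjusted p under 0.05.

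Of 19 subset factors and homing partners tested, 9 rose and 4 fell with ATPgs, 10 rose and 6 fell with adenosine, and 1 rose with adenosine and inhibitor, where 37.1%, 50.2% and 1.14% of all genes were called in either direction. Tbx21, which encodes T-bet, a factor known to activate Cxcr3, fell by 1.19 ± 0.19 with ATPgs (adjusted p = 0.00696) and by 0.55 ± 0.04 with adenosine (adjusted p = 1.90e-17), while Cxcr3 fell with ATPgs and rose with adenosine. Klf2, a factor of T cell egress and lymph node homing, rose by 2.35 ± 0.27 with ATPgs (adjusted p = 0.000865) and by 0.54 ± 0.13 with adenosine (adjusted p = 0.000571). Its known target S1pr1, the egress receptor, rose by 1.25 ± 0.18 with ATPgs (adjusted p = 0.000987) and by 1.07 ± 0.19 with adenosine (adjusted p = 3.11e-06). Itgb7, an integrin chain of gut homing, rose by 0.70 ± 0.04 with ATPgs (adjusted p = 5.50e-06) and by 0.73 ± 0.03 with adenosine (adjusted p = 2.34e-26). Rora, a factor of T helper 17 and innate-like cells, rose by 1.05 ± 0.06 with ATPgs (adjusted p = 8.15e-06). It rose by 0.96 ± 0.05 with adenosine and by 1.03 ± 0.17 with adenosine and inhibitor (adjusted p = 0.0172).

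The genes whose log2 CPM ran most alike to each receptor were sought among 9385 genes, after centring each set, over 18 libraries. The libraries share their set, treatment and culture conditions, so the coefficients are descriptions. Cxcr4 was most like Prr13 (r = 0.975), Ccng2 (0.969) and Irf1 (0.968). Cxcr6 was most like Arl6ip1 (0.976), and Ccr2 was most like Arl6ip5 (0.966). Ccr4 was most like Ablim1 (0.954) and Ccr8 most like Glul (0.947). In contrast, the best matches of Cxcr3, Il15ra (0.893) and Sp110 (0.866), and of Cxcr5, Atp7a (0.847), were less close. Among the receptors themselves Cxcr6 and Ccr2 had r = 0.936 and Cxcr4 and Cxcr6 had 0.802, whereas Cxcr3 had no coefficient above 0.303 with the 6 others compared.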

How the data were processed

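RNA-seq counts came from 18 libraries in 3 tables of 6, whole-number counts per Ensembl gene as deposited by the authors. Alignment used HISAT2 2.1.0 and GRCm38, per the submitters' processing notes. The sources used here do not give the counting tool, annotation release or strandedness. Symbols and coordinates came from GENCODE M21, and promoters from RefSeq on GRCm38.p6.

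Groups came from the labels. Tests used the robust quasi-likelihood F test of edgeR 4.0.16 (R 4.3.3) on the deposited counts, two-sided, after filterByExpr by group and TMM scaling, with Benjamini-Hochberg adjustment over all genes tested and a threshold of 0.05. Effects used 6 libraries and differences 12. The SE is the log2 fold change divided by the square root of F. Tests were run on simulated data first. Alternatives were DESeq2 1.42.0, other scalings and filters, all 18 libraries, a replicate block, limma-voom 3.58.1 and leaving out each library.

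All 9 receptors are described. From each other list up to 4 called genes per treatment comparison, with the largest change and at least 1 CPM in a group, were to be named. Some genes named for a comparison were also described in others where the rule did not name them. An example is Ccl20 with adenosine, under 1 CPM in DNT and ADO. Ccr3, Fyco1 and Ccr1l1 were described for their position, and Lyz2, S100a9, Cd14, Cd68, Fcgr1 and Mpo were chosen after their values were seen. Leaving Ly6c2 out of the myeloid sum was also chosen after its values were seen. Some genes that the rule or the position would name are not reported here. The receptors, lists and tests were chosen with earlier results of these data known. Per-kilobase levels used exon length, and principal transcript lengths, added after seeing the data, left the order unchanged. No deposited library was left out.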

Additional observations from a re-analysis of the deposited data

Results flagged for a closer look

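Of the receptors, 4 tested differences between comparisons passed the threshold. The adenosine effect on Cxcr4 was lower with the inhibitor than without (difference in log2 fold change -1.29), and that on Ccr4 was higher with it (0.996). The ATPgs effect was lower than the adenosine effect for Cxcr3 (-1.61) and higher for Ccr4 (0.916). Set and treatment cannot be told apart in these values.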

How the results depend on the processing

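Of 676 single-receptor values under alternatives, 612 kept their direction and side of the threshold, 31 lost and 16 gained a call, and 17 changed sign. The cause of each change was not tested, apart from fewer libraries where one was left out. The number of receptors called with ATPgs (7) was 4 with no filter on low counts and 3 to 7 with a library left out. With adenosine and inhibitor (1) it was 2 with DESeq2, with no filter and with all 18 libraries, 0 with library size only, and 0 to 2 with a library left out. For the difference with inhibitor (2) it was 0 with library size only, 1 with the replicate block and 2 to 4 with a library left out, and for that between ligands (2) it was 2 to 6 with a library left out, 6 without WTATPgs replicate 3.

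All genes called with all 18 libraries in one fit were 3299 with ATPgs, 2309 with adenosine, 1778 with adenosine and inhibitor, 1009 for the inhibitor difference and 302 for the ligand difference, against 5612, 7281, 147, 606 and 2724. With adenosine and inhibitor they were 533 with DESeq2, 73 with library size only, 485 with no filter, and 36 (without RA replicate 1) to 1719 (without R replicate 3). For the inhibitor difference they were 1387 with DESeq2, 240 with library size only, 160 with the replicate block, and 280 (without DNT replicate 1) to 3051 (without R replicate 3). For the ligand difference they ran from 1943 (without WT replicate 1) to 5367 (without WTATPgs replicate 3). With library size only, 58.1% of ATPgs calls and 60.8% of adenosine calls were higher, against 47.7% and 50.9%.

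Replicate numbers did not pair the libraries (correlations of deviations -0.108 to 0.0181 over 9 pairs), so the replicate block, under which Ccr4 lost its inhibitor difference (adjusted p = 0.0619) and Ccr8 its ATPgs call (0.0508), shares only a number.

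The sign changes were in effects that were not called. With a library left out, the adenosine effect with inhibitor ran from -0.352 to 0.168 for Ccr2, from -0.0534 to 0.241 for Cxcr3 and from -0.0473 to 0.208 for Cxcr6, and Ccr2 was 0.0373 with library size only. The ligand difference ran from -0.066 to 0.292 for Ccr2, from -0.224 to 0.0659 for Cxcr6 and from -0.309 to 0.483 for Ccr9, and Ccr9 was -0.000846 with all 18 libraries and -0.00381 with no filter. The ATPgs effect on Ccr9 ran from -0.189 to 0.0224, and the adenosine effect on Cxcr5 from -0.0336 to 0.251. Low counts limit Cxcr5, Ccr6 and Ccr9 in all groups, Cxcr3 in set 3 and Ccr8 in the controls of each set.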
